A study of Mus musculus with 2 samples.

Results

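The fibrillar collagens are the 10 genes Col1a1, Col1a2, Col2a1, Col3a1, Col5a1, Col5a2, Col5a3, Col11a1, Col24a1 and Col27a1, taken by symbol from the 19465 genes measured, and all 10 were found. They were followed in heart sections from 2 mice, read with the Visium CytAssist assay, in which pairs of probes hybridise to transcripts in a fixed section and are captured on barcoded spots, each covering a small piece of tissue that can hold several cells of different types. The control was an α-MHC-MerCreMer+/− mouse, whose tamoxifen-activated Cre is driven by the cardiomyocyte α-MHC promoter. The transgenic mouse was α-MHC-MerCreMer+/− hTOP2B LSL/−, and also carried a human TOP2B cDNA at Rosa26 behind a STOP cassette that Cre removes, under the CAG promoter, which is active in many cell types once the STOP is gone. Both mice received a single intraperitoneal dose of 80 mg/kg of tamoxifen, so Cre activation and tamoxifen were shared by both. The labels give neither the age of the mice nor the time from tamoxifen to harvest, and 1 section of 5 µm represents each genotype. The paper's methods state 1 age for mice of its single-dose model and used siblings of that age as controls. They do not tie that age to these 2 sections.

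Fibrillar collagens are secreted as procollagen, trimmed of their propeptides, assembled into banded fibrils and crosslinked. In the heart, types I and III form the bulk of the interstitial and perivascular matrix and are made chiefly by fibroblasts, while type V is built into the same fibrils and governs their initiation and diameter. Types II and XI belong to cartilage, and types XXIV and XXVII are minor members described mostly in developing bone and cartilage.

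The control section had 14376300 UMIs (unique molecular identifiers, each standing for 1 captured probe) over 1256 spots and the transgenic section 12953389 over 924 spots. Levels are given as UMIs per 1000000 UMIs of a section (CPM), so a count of 0 allows up to 0.209 CPM in the control against 0.232 CPM in the transgenic section. With 1 section per genotype there is no replicate error and no p-value, and the 95% intervals below cover counting error only. Probes of different genes are captured with different efficiency, so levels were not compared between genes. The mouse Top2b probes gave 1531 UMIs in the control and 1318 in the transgenic section (106 and 102 CPM), which does not check the human cDNA. The spots of both sections held cardiomyocyte genes at 49545 and 43061 CPM in sum, as heart tissue should. Of the 9 genes, 3 were at least 2-fold lower in the transgenic section, against 5.61% of all genes with at least 20 UMIs, and 0 at least 2-fold higher. The lower genes were Pln, Myl3 and Ldb3, at log2 ratios of -1.03, -1.07 and -1.01, and the list median was -0.50. The list is thus not a measure of cell content that is equal between the genotypes. The sections also differed in their marker genes. Hemoglobin and other erythroid genes summed to 2145 CPM in the control against 20390 CPM in the transgenic section. All 4 of these genes were at least 2-fold higher, against 13.7% of all genes with at least 20 UMIs. Atrial genes summed to 25.4 and 131 CPM. Of the 4 atrial genes with at least 20 UMIs, 3 were at least 2-fold higher, against 13.7% of all such genes. Dkk3 gave 57 of 365 and 947 of 1703 UMIs, Myl7 125 and 409, and Myl4 158 and 328. Sln had 16 and 10 UMIs and Bmp10 had 9 in each.

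Fibrillar collagen transcripts were 5.16-fold more abundant in the transgenic section (5.07 to 5.26). The 10 genes together had 14605 UMIs (1016 CPM) in the control and 67937 UMIs (5245 CPM) in the transgenic section, for a log2 ratio of 2.37 (2.34 to 2.39). The difference was not even across the family: Col5a2, Col1a1 and Col1a2 were higher by over 6-fold, Col3a1, Col5a1 and Col27a1 by 3.47-fold to 4.02-fold, Col5a3 by under 2-fold, and Col24a1 alone had a lower value. Of the 10 members, 8 were at least 2-fold higher, against 13.7% of the 15236 genes with at least 20 UMIs, and 0 were at least 2-fold lower, against 5.61% of those genes. The median log2 ratio was 1.81 over the members and 0.20 over all genes. Fewer or more collagen-producing cells and less or more RNA per cell cannot be told apart in such spots.

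**Figure D1:**
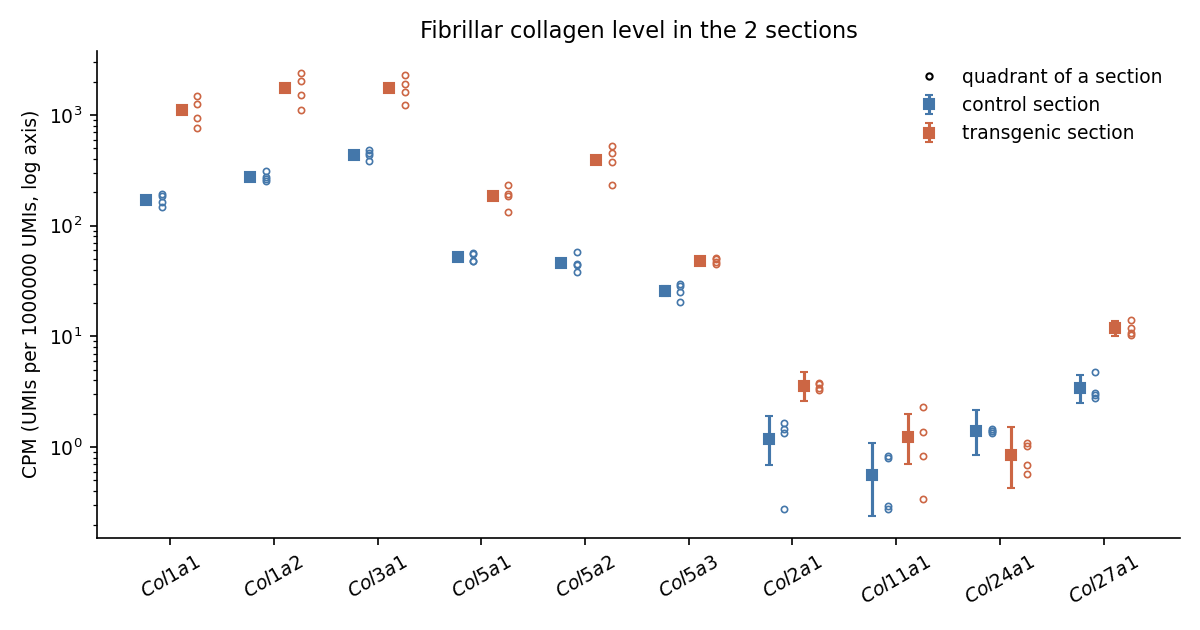
Level of each fibrillar collagen in CPM (log axis). Squares are the value of the whole section with the 95% Poisson interval (counting error only) and open circles the 4 quadrants of a section. The quadrants of the transgenic section lie above those of the control for the type I, III and V chains, Col2a1 and Col27a1, overlap for Col11a1, and lie below for Col24a1.

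The sequence before the start site is shown for 4 of the more abundant members, which were higher in the transgenic section to different extents. RefSeq's promoter table (assembly GRCm38.p6, while the processing notes of these data name GRCm39) holds 7 of the 10 members. It has no entry used here for Col1a1, Col2a1 and Col5a2. Each line gives the 250 bases before the annotated start, 5′ to 3′ on the gene's own strand. Capitals mark 3 motifs searched on either strand: the CCAAT letters, the GC box, written GGGCGG here, and the TATA box, written TATAAA.
Col1a2, chr6:4505368-4505617, plus strand: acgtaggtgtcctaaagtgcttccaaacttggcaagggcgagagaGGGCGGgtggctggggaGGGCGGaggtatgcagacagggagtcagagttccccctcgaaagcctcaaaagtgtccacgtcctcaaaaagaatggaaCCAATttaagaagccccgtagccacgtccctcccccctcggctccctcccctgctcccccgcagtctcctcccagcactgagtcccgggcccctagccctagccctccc
Col3a1, chr1:45311288-45311537, plus strand: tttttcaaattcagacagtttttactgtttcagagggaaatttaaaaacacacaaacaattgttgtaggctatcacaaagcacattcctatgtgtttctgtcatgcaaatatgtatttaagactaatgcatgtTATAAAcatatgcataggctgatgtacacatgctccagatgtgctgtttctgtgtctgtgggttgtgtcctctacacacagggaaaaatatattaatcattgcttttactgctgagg
Col5a1, chr2:27886175-27886424, plus strand: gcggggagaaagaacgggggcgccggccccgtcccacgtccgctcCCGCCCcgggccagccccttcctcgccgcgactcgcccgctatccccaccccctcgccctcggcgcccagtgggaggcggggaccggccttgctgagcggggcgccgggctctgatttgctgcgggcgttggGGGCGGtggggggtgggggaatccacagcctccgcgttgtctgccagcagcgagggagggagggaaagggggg
Col5a3, chr9:20815068-20815317, minus strand: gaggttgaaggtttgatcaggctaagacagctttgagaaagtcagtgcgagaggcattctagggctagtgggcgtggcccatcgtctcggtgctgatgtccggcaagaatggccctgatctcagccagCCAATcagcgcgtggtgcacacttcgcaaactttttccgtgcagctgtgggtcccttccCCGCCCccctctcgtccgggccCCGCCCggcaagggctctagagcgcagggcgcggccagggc
GGGCGG stood in the windows of 5 of the 7 members and in 32.7% of all 32851 start sites, CCAAT in 3 of 7 and 33.8%, and TATAAA in 1 of 7 and 12.4%. The Col1a2 window held CCAAT 109 bases before the start and GGGCGG at 205 and 188 bases. The Col3a1 window held neither, but TATAAA at 117 bases, and its GC content was 35.2% beside 62.0% in Col1a2 and 76.4% in Col5a1. In the Col5a3 window CCAAT lay at 122 bases. These are matches of letters and not sites shown to be bound.

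Type I collagen, the main load-bearing collagen of the scar and of the interstitium, is a heterotrimer of the Col1a1 and Col1a2 chains. Col1a1 (ENSMUSG00000001506) had 2474 UMIs (172 CPM) in the control and 14264 UMIs (1101 CPM) in the transgenic section, for a log2 ratio of 2.68 (2.62 to 2.74). Its 4 control quadrants lay between 149 and 192 CPM and its 4 transgenic quadrants between 754 and 1485 CPM, without overlap. Col1a2 (ENSMUSG00000029661) had 3970 UMIs (276 CPM) and 22615 UMIs (1746 CPM), for a log2 ratio of 2.66 (2.61 to 2.71), with quadrants of 252 to 312 and 1105 to 2397 CPM. Both chains therefore rose by nearly the same factor, 6.40-fold for Col1a1 and 6.32-fold for Col1a2. The UMIs of Col1a2 per UMI of Col1a1 were 1.60 (1.53 to 1.69) in the control and 1.59 (1.55 to 1.62) in the transgenic section, a difference inside the counting error. Among the 15236 genes, Col1a1 ranked 247th and Col1a2 252nd by log2 ratio.

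Type III collagen, a homotrimer of the Col3a1 chain that is found in thinner, more compliant fibrils and mixed with type I, rose less. Col3a1 (ENSMUSG00000026043) had 6290 UMIs (438 CPM) in the control and 22756 UMIs (1757 CPM) in the transgenic section, for a log2 ratio of 2.01 (1.97 to 2.05). The quadrants ran from 384 to 486 CPM in the control and from 1238 to 2292 CPM in the transgenic section. The UMIs of Col3a1 per UMI of the 2 type I chains together fell from 0.976 (0.943 to 1.01) to 0.617 (0.607 to 0.627). All 4 transgenic quadrants, at 0.590 to 0.666, lay below all 4 control quadrants, at 0.958 to 1.01. The ratio does not depend on how the sections are scaled to each other, and the same direction was seen in spots at the edge of the tissue (1.12 and 0.635), away from it (0.943 and 0.608) and in the 50% of spots richest in cardiomyocyte genes (1.01 and 0.661).

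The type V chains split most. The Col5a1 chain, present in the common heterotrimer with Col5a2, had 742 UMIs (51.6 CPM) in the control and 2382 UMIs (184 CPM) in the transgenic section, for a log2 ratio of 1.83 (1.71 to 1.95). Col5a2 (ENSMUSG00000026042) had 662 UMIs (46.0 CPM) and 5070 UMIs (391 CPM), for a log2 ratio of 3.09 (2.97 to 3.21). That 8.50-fold difference was the highest in the family and ranked 151st of the 15236 genes. Col5a3, the chain of a less widespread heterotrimer, had 373 UMIs (25.9 CPM) and 624 UMIs (48.2 CPM), for a log2 ratio of 0.89 (0.71 to 1.08). Quadrants did not overlap for any of the 3 chains, at 47.6 to 56.5 and 133 to 231 CPM for Col5a1, 38.3 to 57.4 and 235 to 520 CPM for Col5a2, and 20.5 to 29.7 and 45.5 to 50.9 CPM for Col5a3. The UMIs of Col5a2 per UMI of Col5a1 went from 0.892 (0.802 to 0.992) to 2.13 (2.03 to 2.24), with control quadrants of 0.804 to 1.02 and transgenic quadrants of 1.77 to 2.34. The UMIs of Col5a3 per UMI of Col5a1 went from 0.503 (0.443 to 0.570) to 0.262 (0.239 to 0.286), and quadrants ran from 0.374 to 0.622 and from 0.216 to 0.352. Col3a1 and Col5a2 are next to each other on chromosome 1 with no RefSeq gene between them, and their log2 ratios differed, at 2.01 and 3.09.

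The other 4 members had the fewest UMIs of the family. Col27a1, which encodes type XXVII, had 49 UMIs (3.41 CPM) in the control and 153 UMIs (11.8 CPM) in the transgenic section, for a log2 ratio of 1.79 (1.32 to 2.29), with quadrants of 2.78 to 4.79 and 10.3 to 14.1 CPM. Col2a1, the type II chain of cartilage, had 17 and 46 UMIs (1.18 and 3.55 CPM), for a log2 ratio of 1.59 (0.76 to 2.48). Col11a1, a type XI chain, had 8 and 16 UMIs, for a log2 ratio of 1.15 (-0.16 to 2.58), and its quadrants overlapped. Col24a1, the type XXIV chain, had 20 and 11 UMIs, for a log2 ratio of -0.71 (-1.92 to 0.42). Counting error alone thus covers the differences of Col11a1 and Col24a1, and a change in either was not detectable at this depth. Over the family, all 4 transgenic quadrants lay above all 4 control quadrants for 8 members, against 30.4% of the 15236 genes. They lay below them for Col24a1 alone, against 13.1% of genes. Quadrants of 1 section are not replicates, and some held few UMIs. The control quadrants of Col2a1 held 1 to 6 UMIs. Those of Col24a1 held 5 each in the control and 2 to 4 in the transgenic section.

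**Figure D2:**
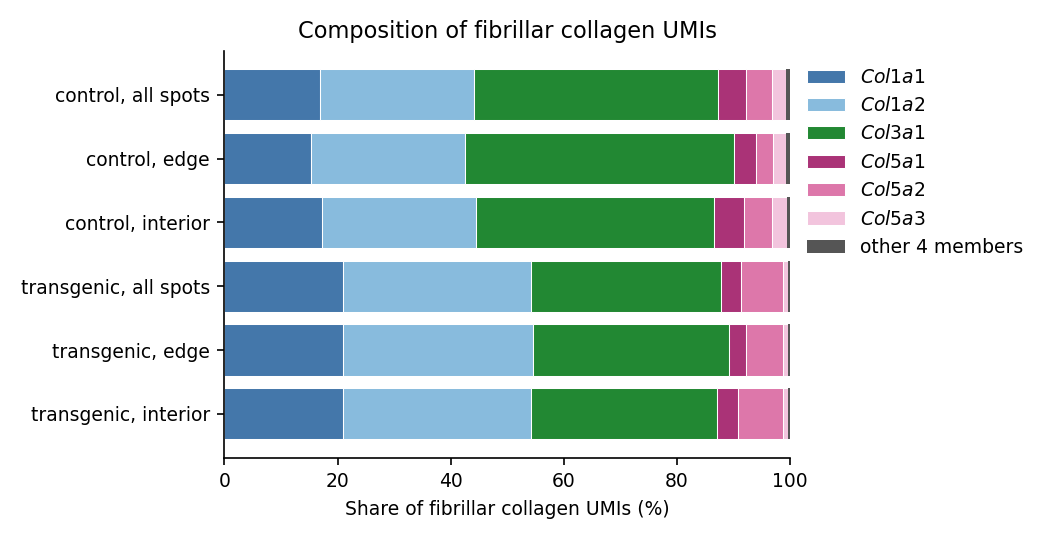
Share of fibrillar collagen UMIs taken by each chain, in percent, over all spots, spots at the tissue edge and spots away from it. Over all spots Col3a1 takes 43.1% in the control and 33.5% in the transgenic section, and Col5a2 takes 4.53% and 7.46%.

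These unequal rises changed the makeup of the fibrillar collagen UMIs. Col3a1 took 43.1% (42.3 to 43.9, exact binomial interval) of them in the control and 33.5% (33.1 to 33.9) in the transgenic section. Col1a2 went from 27.2% (26.5 to 27.9) to 33.3% (32.9 to 33.6), and Col1a1 from 16.9% (16.3 to 17.6) to 21.0% (20.7 to 21.3). Among the type V chains Col5a2 went from 4.53% to 7.46%, Col5a1 from 5.08% to 3.51% and Col5a3 from 2.55% to 0.918%. The other 4 members each took at most 0.336% in either section.

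Most spots already held a UMI of the abundant chains in the control, so the share of spots differed most between the sections for Col5a2 and Col5a1. A UMI of Col3a1 was found in 95.5% of control and 97.0% of transgenic spots, of Col1a2 in 90.4% and 97.3%, and of Col1a1 in 82.0% and 97.2%. For Col5a2 the shares were 39.2% (36.5 to 41.9, Clopper-Pearson) and 89.8% (87.7 to 91.7). For Col5a1 they were 43.3% and 81.9%, for Col5a3 25.1% and 45.9%, and for Col27a1 3.66% and 14.6%. Col2a1 was found in 1.35% and 4.44% of spots, Col11a1 in 0.637% and 1.73%, and Col24a1 in 1.59% and 1.19%. The transgenic spots were deeper, with a median of 14531 UMIs against 11335.5. After thinning each spot to a depth of 8134 UMIs, without the 140 control and 78 transgenic spots that were shallower, the shares were 31.2% and 86.8% for Col5a2, 33.7% and 72.4% for Col5a1, 19.0% and 32.3% for Col5a3, and 72.5% and 97.9% for Col1a1. The largest number of UMIs in 1 spot was 28 in the control and 234 in the transgenic section for Col3a1, and 5 and 32 for Col5a2.

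Spot by spot, the family varied widely inside each section. In spots of at least 8134 UMIs, summed fibrillar collagen UMIs per 10000 UMIs ran from 0.826 through a median of 8.94 to 41.3 in the control, and from 4.94 through 51.0 to 195 in the transgenic section. The 10th and 90th percentiles were 4.42 and 16.1 in the control and 14.9 and 90.6 in the transgenic section. Of 846 such transgenic spots, 517 (61.1%) lay above the highest control spot, and 16 (1.89%) lay below the control median. The spread between spots beyond counting error was taken over all spots with a UMI, shallow ones included. As a coefficient of variation, this spread was 45.1% in the control and 56.2% in the transgenic section for the sum. It was 42.3% and 61.2% for Col1a1 and 55.8% and 60.0% for Col3a1.

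**Figure D3:**
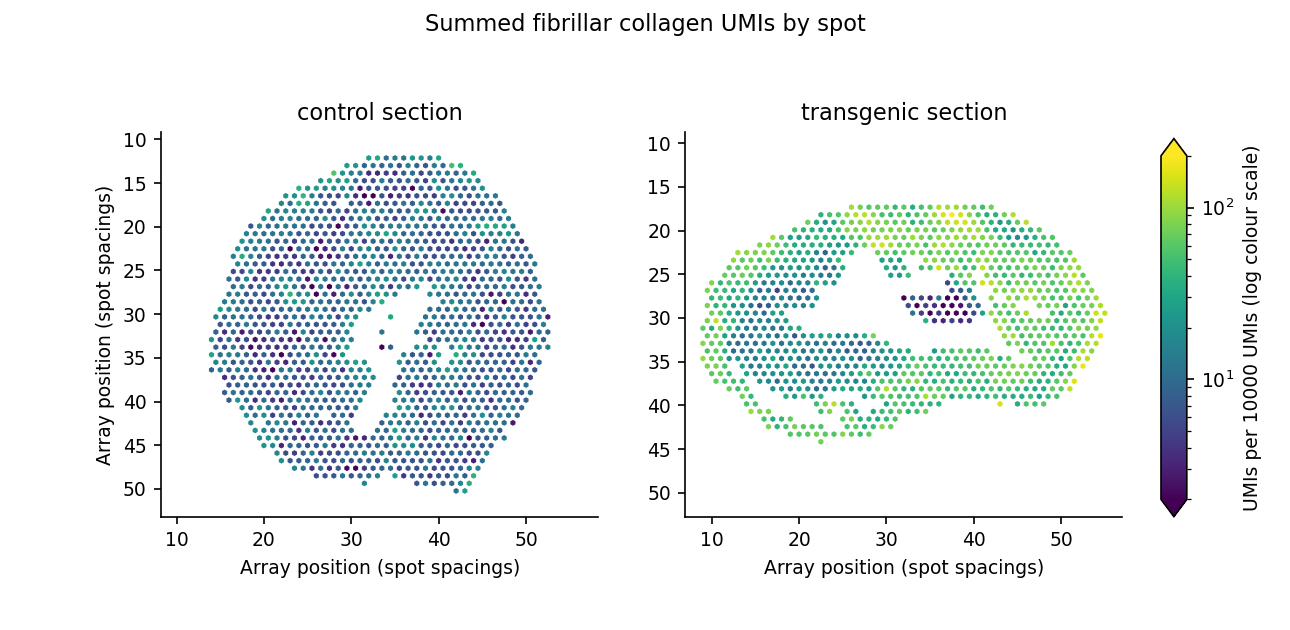
Summed fibrillar collagen UMIs per 10000 UMIs in each spot with at least 1000 UMIs, at its array position in spot spacings, with 1 log colour scale for both sections. Spots beyond the scale, which runs from 2 to 200, have its end colours. Transgenic spots are brighter than control spots over most of the tissue, with a dark group of spots and a dimmer area on the left.

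In the map of the transgenic section, bright spots lay next to each other, and the 4 quadrants differed widely. The sum was at 3528 CPM in the lower left quadrant of that map, 4667 in the upper left, 5880 in the lower right and 6996 in the upper right. In the control the same quadrants had 911, 1131, 989 and 1037 CPM. Moran's I, a score near 0 where neighbouring spots are unrelated and near 1 where they are alike, was deposited by the authors for each gene. It was 0.11 in the control and 0.67 in the transgenic section for Col1a2, and 0.09 and 0.59 for Col1a1. For Col3a1 it was 0.17 and 0.61, for Col5a2 0.02 and 0.46, and for Col5a1 0.03 and 0.30. For Col5a3 it was 0.01 and 0.03, and the other 4 members stayed between -0.02 and 0.03 in both sections. In the control, Col3a1 had the highest score of the family and ranked 38th of 19219 genes listed, and in the transgenic section Col1a2 ranked 15th of 19227. The medians over all genes listed were -0.00054 and 0.01. The UMIs of a gene were also more numerous in the transgenic section for 9 of the 10 members, and their part in the score was not tested.

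The abundant chains were richer at the edge of the tissue. An edge spot is one with fewer than 6 of its 6 neighbours over tissue, at the outer border or beside a gap in the section. The control had 230 edge spots (18.3%) and the transgenic section 311 (33.7%), so the sections differed in how much edge they held. Summed fibrillar collagens were at 1415 CPM in edge spots and 951 CPM in the other spots of the control, 1.49-fold (1.43 to 1.55). In the transgenic section they were at 5973 and 4960 CPM, 1.20-fold (1.18 to 1.22). Among the chains of types I, III and V the edge excess was largest for Col3a1, at 1.69-fold (1.59 to 1.79) in the control and 1.27-fold (1.23 to 1.30) in the transgenic section. Col1a2 had 1.49-fold and 1.22-fold, and Col1a1 1.32-fold and 1.21-fold. Of the type V chains, Col5a1 and Col5a2 had no such excess, with Col5a1 at 1.08-fold (0.874 to 1.32) and 0.976-fold (0.891 to 1.07) and Col5a2 at 0.904-fold (0.711 to 1.14) and 0.996-fold (0.936 to 1.06). Col5a3 was at 1.27-fold (0.955 to 1.67) and 1.11-fold (0.932 to 1.32). In the control, Col3a1 and Col24a1 were at least 1.5-fold higher at the edge, against 9.42% of 12242 genes that had 20 or more UMIs in that section, though Col24a1, at 3.30-fold (1.12 to 8.91), rested on 7 edge UMIs. Col2a1, at 1.89-fold (0.448 to 6.11), had 17 control UMIs and was not among those genes, nor was Col11a1 with 8. In the transgenic section 0 members were past that fold, against 4.7% of 12441 genes that had 20 or more UMIs there. Col11a1 and Col24a1, with 16 and 11 UMIs, were not among them. With so few members, a count of 0 is near that share. The median log2 ratio of edge over the other spots, over all genes, was 0.04 in the control and -0.01 in the transgenic section.

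**Figure D4:**
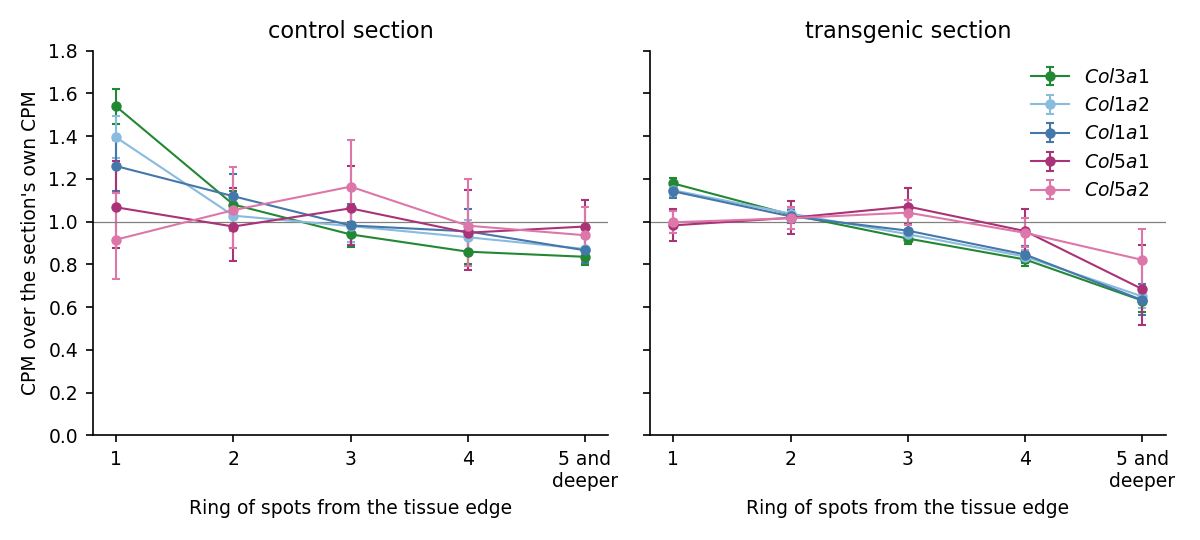
CPM of 5 chains in rings of spots counted from the tissue edge inward, divided by the CPM of the whole section, with 95% Poisson intervals (counting error only). Col3a1, Col1a2 and Col1a1 fall from ring 1 inward in both sections, and Col5a1 and Col5a2 stay near 1 down to ring 4.

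Counted in rings from the edge inward, the sum was at 1415, 1079, 991, 913 and 884 CPM in the control, the last ring holding every spot 5 or more rings deep. In the transgenic section it was at 5973, 5410, 4984, 4443 and 3429 CPM, the last from 29 spots. Both sections therefore fell from the edge inward, and the deepest transgenic ring still stood above the outermost control ring. Col3a1 went from 673 to 366 CPM in the control and from 2071 to 1108 CPM in the transgenic section. Col5a2 was at 42.2 CPM in the outermost and 43.1 CPM in the deepest ring of the control, and at 390 and 321 CPM in the transgenic section. Between the genotypes, the log2 ratio of the sum was 2.08 (2.02 to 2.13) in edge spots and 2.38 (2.35 to 2.41) in the others. Epicardial genes were higher at the edge, at 55.1 CPM there and 11.6 CPM elsewhere in the control. In the transgenic section they were at 80.2 and 24.2 CPM, with 0 of the 9 genes at 0 in either section. Atrial genes were at 94.8 and 14.1 CPM in the control and at 142 and 127 CPM in the transgenic section. Fibroblast genes were at 1984 and 1492 CPM and at 2350 and 2191 CPM. Smooth muscle and pericyte genes were not higher at the control edge, at 1155 and 1221 CPM. Erythroid genes were also higher at the edge, at 5364 and 1620 CPM in the control and 32859 and 15514 CPM in the transgenic section. The part of any of these lists in the edge values was not tested.

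Fibrillar collagens were higher where cardiomyocyte genes took a smaller share of the UMIs, and more so in the transgenic section. Spots were put in 4 equal groups by that share, lowest first, cut within each section. The sum was at 1208, 951, 1010 and 916 CPM in the control and at 7404, 6160, 4535 and 3106 CPM in the transgenic section. The median shares of the groups were 4.51%, 4.78%, 5.01% and 5.37% in the control. In the transgenic section they were 3.40%, 4.11%, 4.58% and 5.06%. The transgenic group richest in cardiomyocyte genes still stood above every control group. Over the 50% of spots richest in cardiomyocyte genes the log2 ratio of the genotypes was 1.99 (1.95 to 2.03), and over the other 50% it was 2.65 (2.61 to 2.68). These sets were also cut within each section, so spots of equal share were not matched between the genotypes. By chain, the richer spots had 2.26 for Col1a1, 1.65 for Col3a1, 1.57 for Col5a1 and 2.76 for Col5a2, and the poorer spots 2.98, 2.28, 2.04 and 3.31. These 4 chains stood in the same order in both sets of spots. Col1a2 was at 2.26 and 2.94, level with Col1a1 in the richer spots and below it in the poorer spots, with overlapping intervals. In the tenth of spots richest in erythroid genes the sum was at 1246 CPM in the control, beside 997 CPM in its other spots, and at 4871 CPM in the transgenic section, beside 5269 CPM in its other spots.

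In sum, fibroblast genes did not rise as far as the collagens, but single genes of the list differed widely. The 10 genes of a fibroblast list, of which Dcn and Lum also stand among the fibril partners below, summed to 1561 CPM in the control against 2236 CPM in the transgenic section. Fibrillar collagen UMIs per UMI of that list went from 0.651 to 2.35. Gsn gave 8547 of the 22444 UMIs of the list in the control and 7706 of 28963 in the transgenic section. The sum and this ratio thus rest heavily on 1 gene and are no measure of collagen per fibroblast. Of the list, 4 genes were at least 2-fold higher and 0 at least 2-fold lower, against 13.7% and 5.61% of all genes, and 0 were at 0. Pdgfra, a receptor that marks cardiac fibroblasts, was at 17.2 and 38.5 CPM, and Tcf21, a transcription factor of the same cells, at 14.7 and 59.2 CPM. The log2 ratio of Tcf21, at 2.01, was level with that of Col3a1. Dcn and Pi16 were the others past 2-fold, at log2 ratios of 1.05 and 1.73. Gsn, Col15a1 and Dpt stood at 0.00, 0.03 and 0.06, and Scara5 at -0.88. Smooth muscle and pericyte genes summed to 1212 and 1211 CPM (quadrants 1091 to 1393 and 1131 to 1315). Of these 9 genes, 1 was at least 2-fold higher, Cnn1 at 2.74, and 1 at least 2-fold lower, Abcc9 at -1.58. Over all genes the shares were 13.7% and 5.61%, and with so few genes a count of 1 is near both. Endothelial genes summed to 1762 and 1717 CPM, and macrophage genes to 223 and 440 CPM (quadrants 211 to 240 and 378 to 485). The part of these cell types in the collagen difference was not tested. The cartilage and valve list went from 17.2 to 94.8 CPM. Col9a2 alone gave 7 and 653 of its 247 and 1228 UMIs and Sox9 110 and 420, while Acan, the defining proteoglycan of cartilage, had 16 and 19 UMIs.

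Over the spots of a section, the chains varied together far more in the transgenic tissue. Spearman's correlation of UMIs per 10000 between Col1a1 and Col1a2 was 0.23 over the 1256 control spots and 0.84 over 923 transgenic spots with a UMI. It was 0.28 and 0.81 between Col1a1 and Col3a1, 0.13 and 0.70 between Col1a2 and Col5a2, and 0.02 and 0.47 between Col5a1 and Col5a2. Col5a3 kept apart, at 0.02 and 0.11 with Col1a1. These are descriptions, since spots share depth and cell makeup, and the part of the lower counts of the control in its correlations was not tested. The summed family correlated at 0.53 and 0.55 with the fibroblast list, 0.15 and 0.45 with the macrophage list, and -0.14 and -0.42 with the cardiomyocyte list.

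The 4 genes outside the family most like it in the control, of 4184 with at least 500 UMIs, were Gsn at 0.47, Mgp at 0.40, Dcn at 0.36 and Igfbp7 at 0.34. Gsn (gelsolin, an actin-severing protein) and Dcn (decorin, a proteoglycan on collagen fibrils) are abundant in fibroblasts, and Mgp encodes an inhibitor of matrix calcification. In the transgenic section, of 4429 genes, they were Igfbp7 at 0.83, Bgn at 0.82, Eln at 0.79, Mgp at 0.78 and Sparc at 0.76. Bgn encodes biglycan, Eln elastin and Sparc a collagen-binding matricellular protein. Gsn, first in the control, had a correlation of 0.19 in the transgenic section, and its level was 595 CPM in both. Eln had 681 UMIs (47.4 CPM) in the control and 20048 UMIs (1548 CPM) in the transgenic section, for a log2 ratio of 5.03.

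**Figure D5:**
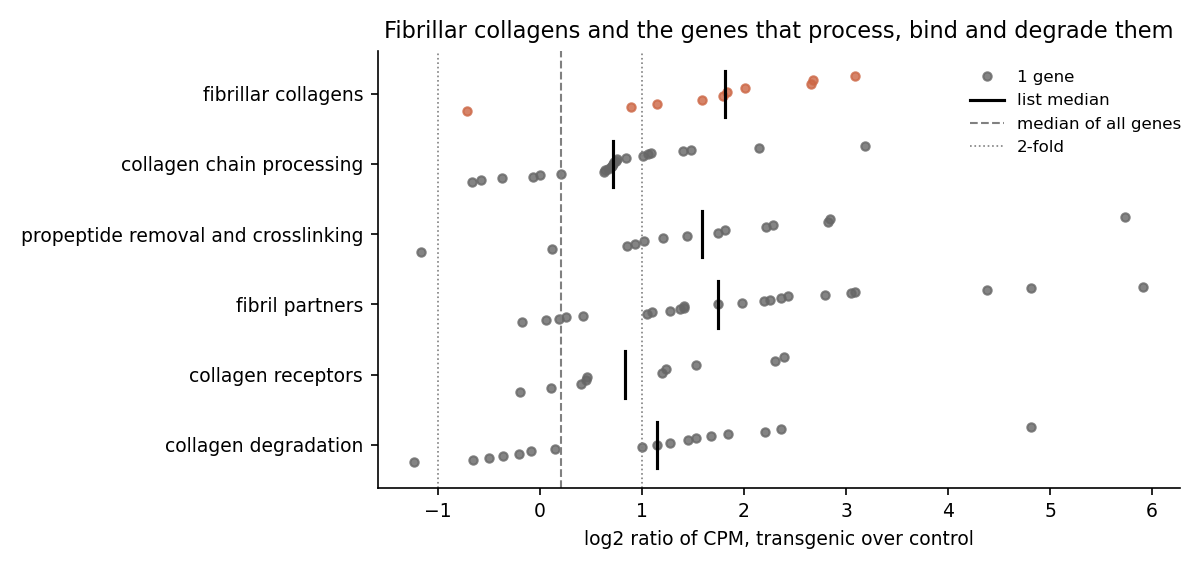
Log2 ratio of CPM, transgenic over control, for each gene with at least 20 UMIs in the family and in 5 lists of collagen pathway genes, with the list medians (bars), the median of all genes (dashed, 0.20) and 2-fold (dotted). The medians are 1.81 for the fibrillar collagens, 1.75 for fibril partners and 0.72 for collagen chain processing.

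The pathway lists here and below were chosen with earlier results of these data known. Their counts beside the shares of all genes are therefore descriptions only. The enzymes and chaperones that modify the chains in the endoplasmic reticulum moved least. Of 23 chain processing genes, 7 were at least 2-fold higher and 0 at least 2-fold lower, with a median log2 ratio of 0.72, against 13.7% and 5.61% of all genes. Under either alternative scaling of the sections 4 were at least 2-fold higher, and the share of all genes under those scalings was not counted. P3h2, a prolyl 3-hydroxylase, went from 45 to 370 UMIs, for a log2 ratio of 3.19 (2.74 to 3.67). P4ha3, a catalytic subunit of prolyl 4-hydroxylase, had 9 and 36 UMIs, a ratio of 2.15. At the other end were P3h4, an endoplasmic reticulum protein of the lysine hydroxylation complex, at -0.66 (-0.79 to -0.53), and Colgalt2, a collagen galactosyltransferase, at -0.57 (-1.03 to -0.13). Serpinh1, the collagen chaperone HSP47, chosen after its values were seen, had 5652 UMIs (393 CPM) in the control and 3930 UMIs (303 CPM) in the transgenic section, for a log2 ratio of -0.37 (-0.43 to -0.31). This gene had the most UMIs of the list, but its lower value does not stand for the list. Of the 23 genes, 18 had a log2 ratio above 0 and 5 below 0. Their summed level went from 1269 to 1660 CPM, so the list as a whole was higher, as were the chains.

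Genes that trim propeptides and crosslink fibrils rose more. Of 14 such genes with at least 20 UMIs, 10 were at least 2-fold higher and 1 at least 2-fold lower, with a median of 1.59, against 13.7% and 5.61% of all genes. Lox, lysyl oxidase, which starts crosslinking by oxidising lysines, had 32 UMIs (2.23 CPM) in the control and 1540 UMIs (119 CPM) in the transgenic section, for a log2 ratio of 5.74 (5.24 to 6.29). Loxl3 had 88 and 570 UMIs, a ratio of 2.85. Adamts14, a procollagen N-proteinase, had 47 and 46 UMIs, a ratio of 0.12. The lower gene was Tll2, a relative of the C-proteinase Bmp1, at -1.17 with 20 and 8 UMIs, and its interval (-2.56 to 0.07) included 0.

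Proteins that bind or coat collagen fibrils stood closest to the family itself. Of 23 partner genes, 18 were at least 2-fold higher (all genes 13.7%) and 0 at least 2-fold lower (all genes 5.61%), with a median of 1.75. Comp, a pentameric glycoprotein that binds collagens, had 63 UMIs (4.38 CPM) and 3422 UMIs (264 CPM), for a log2 ratio of 5.91 (5.55 to 6.30). Postn, periostin, a marker of activated fibroblasts, had 261 UMIs (18.2 CPM) and 6590 UMIs (509 CPM), a ratio of 4.81 (4.63 to 4.99). Tnxb (tenascin-X) at -0.17 (-0.26 to -0.09) and Dpt (dermatopontin) at 0.06 (-0.04 to 0.17) were the lowest of the list. Dpt is also in the fibroblast list.

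Among collagen receptors, 5 of 10 genes were at least 2-fold higher and 0 at least 2-fold lower, beside 13.7% and 5.61% of all genes, with a median of 0.83. Ddr1, a collagen-activated receptor tyrosine kinase, had 709 UMIs (49.3 CPM) and 3361 UMIs (259 CPM), for a log2 ratio of 2.40 (2.28 to 2.51). Itga11, the α subunit of a collagen integrin of fibroblasts, had 32 and 142 UMIs, a ratio of 2.30 (1.74 to 2.90). Itga1 stood at 0.11 (-0.06 to 0.27), and Gp6, the platelet collagen receptor, at -0.20 with 14 and 11 UMIs.

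Among genes of collagen degradation and its inhibitors, 9 of 17 were at least 2-fold higher and 1 at least 2-fold lower, with a median of 1.15. Over all genes the shares were 13.7% and 5.61%, so the share of lower genes was near the background. The higher genes include inhibitors as well as enzymes, and the counts do not separate them. A gene at least 2-fold higher here is also counted among the receptors. Timp1, an inhibitor of matrix metalloproteinases, had 27 UMIs (1.88 CPM) and 686 UMIs (53.0 CPM), for a log2 ratio of 4.82 (4.26 to 5.43), and Mmp3 had 16 and 74 UMIs, a ratio of 2.36. Mmp15, a membrane-bound metalloproteinase, was the lower gene, with 2077 UMIs (144 CPM) and 796 UMIs (61.5 CPM), for a log2 ratio of -1.23 (-1.35 to -1.11). Mmp8, the neutrophil collagenase, had 14 and 8 UMIs, a ratio of -0.66 (-2.12 to 0.70), so a difference was not detectable at this depth.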

How the data were processed

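Visium CytAssist libraries of FFPE heart sections from 2 mice, 1 per genotype, were used as deposited. The authors ran Space Ranger 2.0.0 (the version is in the file headers, and the submitters' processing notes name GRCm39) and deposited its UMI counts for each gene in each spot, without normalization, together with Moran's I per gene, a score used as the authors gave it. Counts were summed over spots per section and scaled to CPM, since spots are not replicates. Poisson and Clopper-Pearson intervals and conditional binomial intervals of ratios (95%) cover counting error only. The intervals of ratios alone were tested on simulated data, which held counting error and no other spread. The study compared spots with a Wilcoxon test, which was not run here. Quadrants split a section at the mean position of its spots. Depth per spot ranged from 1 to 47367 UMIs in the control and from 0 to 28695 in the transgenic section. The sections shared 725 spot barcodes, which are fixed array positions and not shared cells.

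Named genes are the 10 members, the 2 highest and 2 lowest ratios of each pathway list among genes with at least 20 UMIs, the 5 genes most like the family in each section, marker genes, Top2b and Serpinh1. Of these, 1 gene is not reported here. The members and lists were chosen with earlier results of these data known. Of the genes listed, Mmp1a, Actc1 and Hba-a1 were not in the gene table used here. Sections were also scaled by TMM (edgeR 4.0.16) and by DESeq2 1.42.0 size factors (R 4.3.3), and by totals that omit the 50 most abundant genes. Other alternatives were means over spots, subsets of spots, 1 CPM added and other minimums of UMIs (1 or 200). Scripts ran in Python 3.11.15 with pandas 2.3.3, scipy 1.17.1 and numpy 2.4.6. Images, and the p-values deposited beside each score, were left out.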

Additional observations from a re-analysis of the deposited data

How the results depend on the processing

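With 1 section per genotype, the values describe these 2 sections, and depth limits Col2a1, Col11a1 and Col24a1, with at most 46 UMIs each in a section. No paired analysis was possible because each genotype has 1 section and no replicate could be left out. Of 110 log2 ratios recomputed for the members and their sum, 74 moved by less than the counting error, 36 moved by more and 0 changed sign. TMM and DESeq2 factors lowered the log2 ratio of every gene by 0.16 and 0.15, and the median of all genes from 0.20 to 0.05 under both. The DESeq2 factor was 1 in both sections, so its ratios are those of the raw UMIs, without scaling for depth. Col11a1 then stood at 0.99 with TMM, under 2-fold.

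For the summed family, 2.37 as reported, the log2 ratio was 2.21 with TMM, 2.22 with DESeq2 factors, 2.28 without the 50 most abundant genes and 2.28 as a mean over spots. It was 2.08 in edge spots, 1.99 in the spots richest in cardiomyocyte genes and 2.50 in the 50% of spots poorest in erythroid genes, a set chosen after seeing the data. With the outer 2 rings as edge, the control log2 ratio of edge over other spots was 0.42 in place of 0.57. The Col1a1 share was 15.3% in control edge spots and 20.5% in the cardiomyocyte-rich 50% of transgenic spots. Moran's I of Col5a3 computed here over control spots away from the edge was -0.00112, opposite in sign to the deposited score. In the transgenic section, Col24a1 went from 0.0129 to -0.0115 in spots away from the edge, and over all spots Col11a1 went from 0.00254 to -0.000857 and Col27a1 from 0.00739 to -0.00024. Of 40 computed scores, 0 stayed the same as the deposited score. In the control, over all spots, Col1a1 went from 0.0870 to 0.133, Col5a1 from 0.0287 to 0.0440 and Col11a1 from 0.0304 to 0.0648.

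The chain processing genes at least 2-fold higher numbered 4 with TMM and 4 with DESeq2 factors in place of 7. With a minimum of 200 UMIs the receptors at least 2-fold higher numbered 3 in place of 5, and the propeptide and crosslinking genes at least 2-fold lower 0 in place of 1. With a minimum of 1 UMI, 1 fibril partner was at least 2-fold lower in place of 0. The cause of these shifts beyond the settings named was not tested.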
